A study of Mus musculus with 10 samples.

Results

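The 154 genes described here encode the proteins of the cytosolic and the mitochondrial ribosome. The rule for members used the symbol alone and no measured value, but the classes were picked with earlier results of these data known. Names made of Rpl or Rps and a number, together with Rplp0, Rplp1, Rplp2 and Rpsa, gave 76 cytosolic genes. Names made of Mrpl or Mrps and a number gave 78 mitochondrial genes. The count table held 54532 genes. The cytosolic class held 30 genes of the small and 46 of the large subunit, and the mitochondrial class 29 and 49. All 154 passed the filter on low counts, each symbol had a single row, and all were tested among 17752 genes. RNA came from the part of the mouse left atrium around the pulmonary veins, with the appendage and most of the veins cut away. The 4 control mice (Ctrl) were R26creERT2/creERT2; Tbx5+/+ and the 6 mutants (CKO) were R26creERT2/creERT2; Tbx5 flox/flox, so that both groups carried, at Rosa26, a Cre recombinase that tamoxifen activates, from a locus expressed in most cell types. All animals received tamoxifen on 3 days at 6 weeks of age, and tissue was taken 1 week later, at 7 weeks. The comparison asks what loss of Tbx5, a T-box factor needed for forming the atria and for their normal rhythm, changes in this tissue. Since the Cre is not limited to heart muscle, it can act in every cell type of the sample.

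Cytosolic ribosomes translate nearly all cellular mRNAs, and their proteins are made in matched amounts from many unlinked genes. The mRNAs of these genes are known for a tract of pyrimidines at the very 5′ end, the TOP motif, through which the kinase mTOR and the RNA-binding protein Larp1 control their translation. Mitochondrial ribosomes carry a separate set of nuclear-encoded proteins and make the respiratory chain subunits encoded by mitochondrial DNA, of which heart muscle needs large amounts. In bulk tissue, fewer cells of a type and less RNA per cell cannot be told apart.

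Summed counts per library ran from 8602794 to 10040808. Atrial cardiomyocyte markers were abundant in every library, with 11 of 11 marker genes detected and a summed level of 38317 to 44549 CPM (counts scaled to a common library size) in Ctrl and 27668 to 43393 CPM in CKO. 9 markers of the airway lining summed to 3930 CPM in Ctrl 3 and 6536 CPM in CKO 4 but to between 0.42 and 225 CPM in the other 8 libraries, so these 2 libraries stood apart and results that rest on them are also given without them. Xist, which female cells express, was between 1004 and 1371 CPM in Ctrl 1, Ctrl 2 and CKO 1 to 3 and between 1.44 and 6.44 CPM in the rest; the labels give no sex and no batch. Tbx5 itself stood at 155, 159, 89.6 and 132 CPM in Ctrl 1 to 4 and at 283, 356, 425, 190, 167 and 189 CPM in CKO 1 to 6. That count covers the whole gene, including exons that the recombined allele keeps, so it does not check the deletion. Its log2 fold change of 1.00 ± 0.29 (SE) missed the threshold (edgeR's quasi-likelihood test, Benjamini-Hochberg adjusted p = 0.101), and passed it with DESeq2 (adjusted p = 0.00963) and with Xist as a covariate (adjusted p = 0.0128), within a range of 0.00963 to 0.231 over all alternatives.

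Per length, cytosolic ribosomal protein transcripts were several-fold more abundant than mitochondrial ones, and both classes varied widely among themselves. Levels in TPM, a transcript's share of the library after division by its length, averaged over 10 libraries, had a median of 404 TPM over the 76 cytosolic genes and of 54.7 TPM over the 78 mitochondrial genes. In the cytosolic class high levels were 1676 TPM for Rplp1, a protein of the stalk that recruits elongation factors, 1324 TPM for Rps29 and 904 TPM for Rps14. Rps20 had the lowest level at 68.4 TPM, followed by Rpl15 (113 TPM), Rpl36a (134 TPM) and Rps16 (138 TPM). Most of these proteins are present once in each ribosome, while their transcript levels spanned a 24.5-fold range. The levels are per length of the annotated transcript to which reads were assigned: the main transcript of Rps20 was 3706 bases long and that of Rplp1 499 bases. In the mitochondrial class the levels ran from 12.7 TPM for Mrpl17, whose main transcript was 7300 bases long, to 464 TPM for Mrpl42, and Mrpl30 (352 TPM), Mrps21 (296 TPM) and Mrpl33 (157 TPM) came next.

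The 2 classes differed in how well their reads can be placed. Cytosolic ribosomal protein genes have many processed pseudogenes, and of the 50-base windows of a main transcript a median of 46.9% occurred in no other annotated gene, against 97.3% for mitochondrial genes. In 44 of 76 cytosolic and 5 of 78 mitochondrial genes fewer than 50% of windows were unique. The lowest cytosolic share was 1.4%, for Rps27. The same transcript was the most abundant in all 10 libraries for 23 of 76 cytosolic and 45 of 78 mitochondrial genes, so that levels of single genes, above all cytosolic ones, can move with the assignment of reads. The difference between CKO and Ctrl described next did not follow this share: its median was 0.37 on the log2 scale over the 44 cytosolic genes under 50% and 0.34 over the other 32.

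The start sequences of the genes, which the choice by name did not use, are shown for 6 members because the strict TOP tract was found in one class and not in the other. RefSeq promoters (GRCm38.p6) were matched for 56 of 76 cytosolic and 69 of 78 mitochondrial genes. A C at the annotated start followed by at least 4 pyrimidines was found in 12 of 56 cytosolic promoters (21.4%), in 0 of 69 mitochondrial promoters and in 2.49% of the 27025 promoters of the table. Annotated starts are often a few bases off: with the first C allowed within 10 bases of the start, the shares were 55.4%, 42.0% and 30.8%. Each line gives 20 bases before the annotated start and 20 from it, on the gene's strand, with the tract in capitals. Rps15a is the cytosolic gene that passed the test below, Rps6 encodes the classic substrate of S6 kinase, Rpl15 has the longest tract at an annotated start (13 bases), and Rpl23, with the lowest cytosolic fold change, has none. Mrps23 and Mrps6 are the mitochondrial genes with the highest and the lowest fold change.
Rps15a, chr7:118116128-118116167, minus strand: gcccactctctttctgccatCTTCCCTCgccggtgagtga
Rps6, chr4:86857348-86857387, minus strand: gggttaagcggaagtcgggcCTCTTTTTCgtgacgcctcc
Rpl15, chr14:18270967-18271006, minus strand: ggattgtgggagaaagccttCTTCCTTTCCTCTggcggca
Rpl23, chr11:97782420-97782459, minus strand: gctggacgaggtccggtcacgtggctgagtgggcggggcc
Mrps23, chr11:88204368-88204407, plus strand: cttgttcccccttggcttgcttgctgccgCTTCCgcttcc
Mrps6, chr16:92058316-92058355, plus strand: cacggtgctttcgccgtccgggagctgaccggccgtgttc

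In 250 bases before to 50 after the start, on either strand, the ETS core CCGGAAG was found in 39.3% of cytosolic and 36.2% of mitochondrial promoters and in 9.12% of all. The shares were 16.1%, 18.8% and 4.19% for the YY1 core ATGGCGG, and 7.14%, 11.6% and 3.64% for GCATGCG, the core of NRF1, a factor known for nuclear genes of mitochondria. The T-box core GGTGTGA occurred in 0 of 56 cytosolic and 0 of 69 mitochondrial promoters and in 3.96% of all, which says only that these letters were not in these windows. The ETS and YY1 cores were about equally frequent in the 2 classes.

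Cytosolic ribosomal protein transcripts made up more of the CKO than of the Ctrl libraries on average, but the groups overlapped. Their summed level was 9919, 10041, 14827 and 9341 CPM in Ctrl 1 to 4 and 15260, 12718, 11286, 13049, 19990 and 12639 CPM in CKO 1 to 6. Ctrl 3 stood above 4 of the 6 CKO libraries, and the other 3 Ctrl libraries stood below every CKO library. The means were 11032 ± 2548 CPM (SD, n = 4) and 14157 ± 3133 CPM (SD, n = 6), a ratio of 1.28. The difference of the means was about as large as the spread within a group. As a share of the library count the class took 0.973% to 1.55% in Ctrl and 1.08% to 1.93% in CKO. Summed TPM, which weighs genes by length, gave a smaller ratio of 1.17.

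The mitochondrial sum had a smaller ratio of CKO to Ctrl. The class summed to 2999, 3046, 3430 and 2576 CPM in Ctrl 1 to 4 and to 3670, 3448, 3091, 2964, 3891 and 3337 CPM in CKO 1 to 6, with means of 3013 ± 349 CPM (SD, n = 4) and 3400 ± 348 CPM (SD, n = 6) and a ratio of 1.13. Ctrl 3 was again the highest control, and CKO 4, the lowest mutant library, lay below Ctrl 1, Ctrl 2 and Ctrl 3. The ratio was smaller for summed TPM, at 1.05, and for the share of the library count, at 1.08. The cytosolic sum divided by the mitochondrial sum of the same library, which needs no scaling between libraries, was 3.31, 3.30, 4.32 and 3.63 in Ctrl and 4.16, 3.69, 3.65, 4.40, 5.14 and 3.79 in CKO. Its mean was 3.64 ± 0.481 in Ctrl and 4.14 ± 0.571 in CKO, and Ctrl 3 lay above 4 of the 6 CKO libraries here too.

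**Figure D1:**
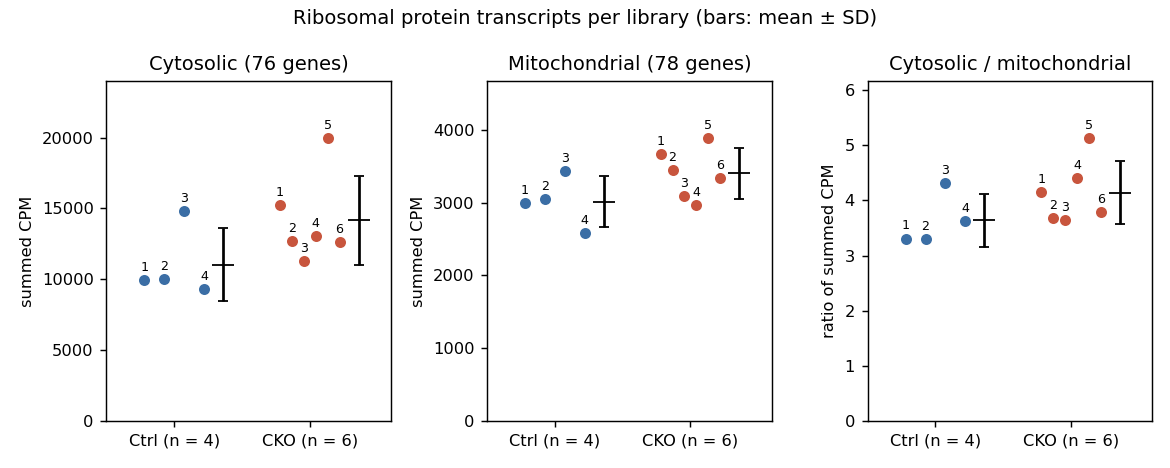
Summed CPM of the 76 cytosolic and the 78 mitochondrial ribosomal protein genes and their ratio, by group, with each point a library labelled by its replicate number and bars giving mean ± SD. Ctrl 3, at 14827 CPM, lies among the CKO libraries in the cytosolic panel, and CKO 5, at 19990 CPM, lies above all others.

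The members of a class varied together from library to library, so that 2 libraries set the extremes. Ctrl 3 was the highest of the Ctrl libraries for 71 of 76 cytosolic and 52 of 78 mitochondrial genes, and CKO 5 the highest of the CKO libraries for 70 of 76 and 51 of 78. Ctrl 4 was the lowest control for 48 cytosolic and 60 mitochondrial genes. The lowest CKO library was CKO 3 for 57 cytosolic genes and CKO 4 for 37 mitochondrial genes. The median SD of log2 CPM among Ctrl libraries was 0.33 for cytosolic and 0.22 for mitochondrial genes, against 0.28 over all tested genes.

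**Figure D2:**
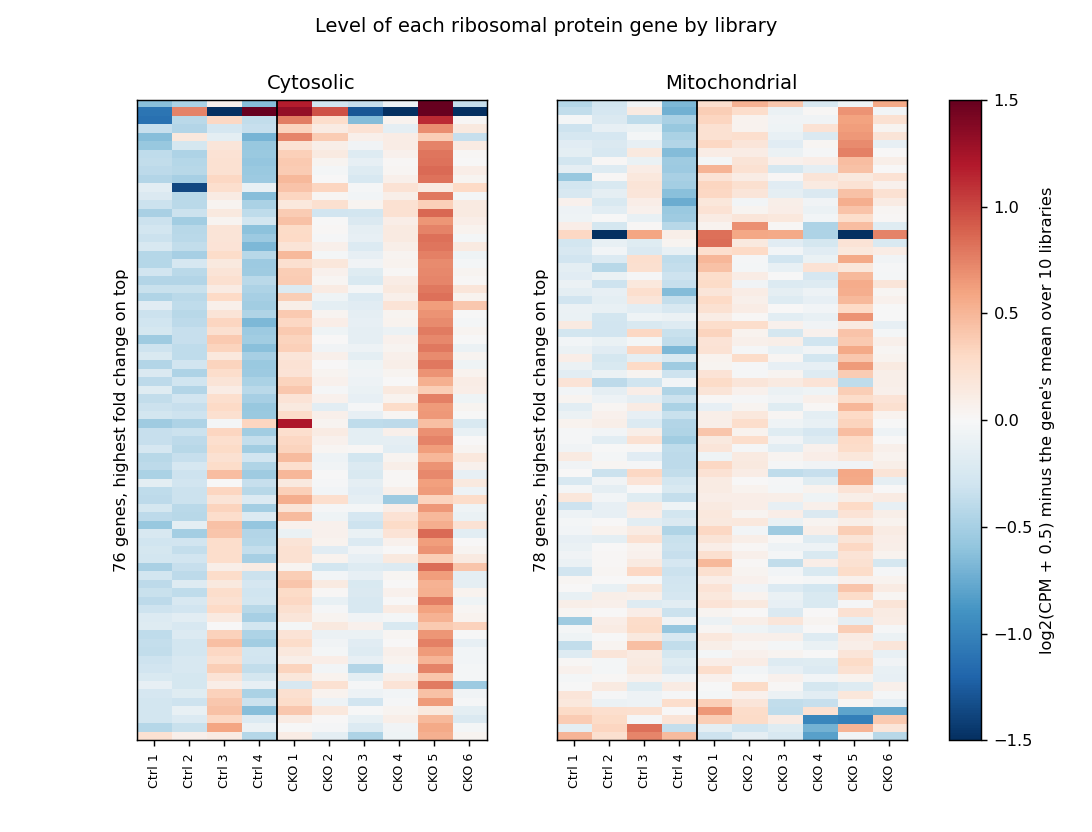
Level of each ribosomal protein gene (rows, ordered by fold change) in each library (columns), as log2(CPM + 0.5) minus the gene's mean over the 10 libraries, with Ctrl left of the black line. Whole columns share a colour: Ctrl 3 is high among the Ctrl libraries for 71 of 76 cytosolic genes and CKO 5 high among the CKO libraries for 70 of 76.

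All 76 cytosolic genes had a log2 fold change above 0 (CKO over Ctrl), from 0.01 to 0.91, with a median of 0.37, which is 1.29-fold. Over all tested genes 46.6% were above 0 and the median was -0.03. Since the genes vary together across libraries, these 76 values are not independent. Taken gene by gene, 1 of 76 passed the threshold, Rps15a, which was higher (edgeR's quasi-likelihood test, Benjamini-Hochberg adjusted p under 0.05); 1.54% of all tested genes were called higher and 2.8% in either direction, so this share is near the background. 21 of 76 had an unadjusted p under 0.05, against 17% of all tested genes. Every CKO library lay above every Ctrl library for 2 of the 76 genes, Rps15a and Rpl3, against 3.03% of all tested genes. Small and large subunit genes had medians of 0.37 and 0.36. In simulated counts the same test found 5.97% of genes changed 1.5-fold, so changes near 1.29-fold could rarely be called over such genes. The changed genes were drawn from all tested genes, and the rate at the levels of this class was not measured.

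**Figure D3:**
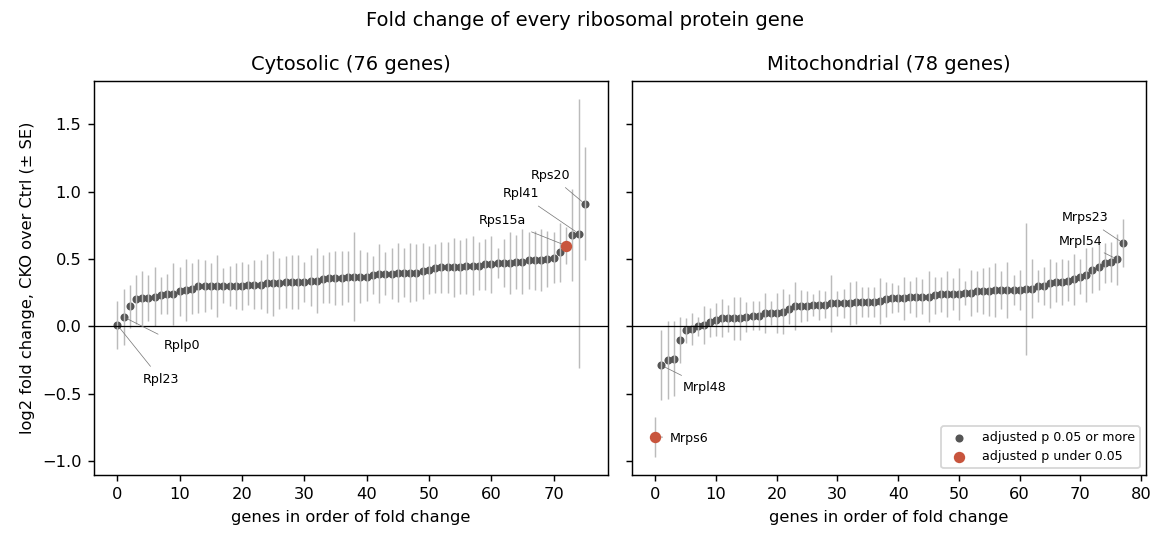
Log2 fold change of CKO over Ctrl ± SE for every cytosolic (left) and mitochondrial (right) ribosomal protein gene, in rising order, with genes past the threshold in red. The cytosolic values lie between 0.01 and 0.91 with Rps15a past the threshold, and in the mitochondrial panel Mrps6, at -0.82, stands below all others.

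Rps15a, a small subunit protein gene on chromosome 7 (ENSMUSG00000008683), rose in CKO by counts but not by TPM. It stood at 95.7, 89.7, 102 and 95.5 CPM in Ctrl 1 to 4 and at 154, 132, 141, 111, 197 and 135 CPM in CKO 1 to 6. The 4 Ctrl libraries, Ctrl 3 included, lay within a narrow range below all CKO libraries. The log2 fold change was 0.60 ± 0.14 (SE, edgeR adjusted p = 0.0493), and it lost the call in 14 of 19 alternative fits, with adjusted p-values from 0.00204 to 0.21 over all of them. Of its windows 50.9% were unique, and its most abundant transcript was not the same in all libraries. Its TPM, summed over its transcripts, had means of 182 ± 76.2 in Ctrl (SD, n = 4) and 171 ± 93.6 in CKO (SD, n = 6).

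Rpl3, which lies near the peptidyl transferase centre, stood at 175, 165, 224 and 157 CPM in Ctrl and at 244, 258, 224, 255, 279 and 239 CPM in CKO. The groups touched without overlapping, since Ctrl 3 lay just below CKO 3. The log2 fold change was 0.47 ± 0.11 (SE, edgeR adjusted p = 0.0554), which missed the threshold, and 5 of 19 alternative fits put it past it. Rpl3l, the striated muscle paralogue that replaces Rpl3 in mature muscle ribosomes, was at 8.98 to 14.6 CPM in Ctrl and 6.1 to 12 CPM in CKO, with a log2 fold change of -0.25 ± 0.21 (SE, edgeR adjusted p = 0.574). The groups overlapped for Rpl3l.

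Rpl22, which binds RNA and is dispensable for most translation, ran from 52.5 to 94.9 CPM in Ctrl and from 66.8 to 142 CPM in CKO, with a log2 fold change of 0.55 ± 0.22 (SE, edgeR adjusted p = 0.241). Its paralogue Rpl22l1 ran from 16.5 to 34.1 CPM and from 20.6 to 41.5 CPM, with 0.30 ± 0.22 (SE, adjusted p = 0.521). Rps27 and its paralogue Rps27l differed by 0.33 ± 0.19 and 0.40 ± 0.25, with adjusted p-values of 0.403 and 0.443. None of these 4 genes separated the groups.

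The largest cytosolic differences came from genes with wide spread and did not pass the test. Rps20 was at 56.7, 63, 91.7 and 56.5 CPM in Ctrl and at 200, 71.8, 68.9, 83.6, 261 and 69.3 CPM in CKO (log2 fold change 0.91 ± 0.42 SE, edgeR adjusted p = 0.305). CKO 1 and CKO 5 were high and the other CKO libraries lay within the Ctrl range. Rpl41, the smallest ribosomal protein, ran from 8.33 to 101 CPM in Ctrl and from 8.36 to 254 CPM in CKO (0.69 ± 1.0 SE, edgeR adjusted p = 0.764), a spread within groups far larger than that of any other cytosolic gene named here. Rps28 ran from 47.1 to 128 CPM and from 65.5 to 225 CPM (0.68 ± 0.34 SE, edgeR adjusted p = 0.343). At the other end, Rpl23 ran from 116 to 183 CPM in Ctrl and from 113 to 226 CPM in CKO (0.01 ± 0.18 SE). Of the stalk proteins, Rplp0 had 0.07 ± 0.21 (SE), Rplp2 0.15 ± 0.16 and Rplp1 0.46 ± 0.21, with adjusted p-values of 0.892, 0.655 and 0.289.

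In the mitochondrial class 71 of 78 genes had a log2 fold change above 0, against 46.6% of all tested genes. The values ran from -0.82 to 0.62, with a median of 0.20, which is 1.15-fold. 0 were called higher by edgeR, against 1.54% of all tested genes, and 1, Mrps6, was called lower, against 1.26%. An unadjusted p under 0.05 was found for 13 of 78, near the 17% of all tested genes. DESeq2, which called 6.38% of all tested genes in either direction, called Mrps6 lower and Mrps23 higher. Every CKO library lay above every Ctrl library for Mrps17 and Mrpl45 and below for Mrps6, 2 and 1 of 78 genes, beside 3.03% and 2.70% of all. Mrps23 ran at 66.9, 74.3, 87.1 and 56.4 CPM in Ctrl and 108, 130, 120, 76.2, 86.4 and 134 CPM in CKO. Ctrl 3 lay above CKO 4 and CKO 5. Its log2 fold change of 0.62 ± 0.18 (SE) missed the threshold (edgeR adjusted p = 0.107). Mrps17 had 0.47 ± 0.15 (SE, edgeR adjusted p = 0.137), with 25.4 to 35.4 CPM in Ctrl and 36.1 to 58.8 CPM in CKO.

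Other mitochondrial genes at the top were Mrpl54 (0.50 ± 0.19, SE) and Mrpl32 (0.48 ± 0.15, SE), which is matured by the m-AAA protease, with edgeR adjusted p-values of 0.217 and 0.14. Mrpl45, which faces the inner membrane, ran from 43.3 to 48.2 CPM in Ctrl and from 49.6 to 63.1 CPM in CKO, with 0.25 ± 0.09 (SE, edgeR adjusted p = 0.191). Of the values below 0 other than that of Mrps6, the 3 lowest were about as large as their errors. Mrpl48 had -0.29 ± 0.26 (SE), Mrpl17 -0.25 ± 0.29 and Mrpl27 -0.24 ± 0.28, with adjusted p-values of 0.602, 0.701 and 0.703. Mrps25 differed least, with 69.8 to 75.6 CPM in Ctrl and 66.3 to 76 CPM in CKO.

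Mrps6 fell in CKO, whereas 71 of its class of 78 had values above 0. This small subunit protein gene (ENSMUSG00000039680, chr16:92058270-92112227, plus strand) was at 49.3, 41, 57.9 and 48.3 CPM in Ctrl 1 to 4 and at 27.9, 31.5, 29.1, 19.4, 33.6 and 25.9 CPM in CKO 1 to 6. The groups did not overlap. The log2 fold change was -0.82 ± 0.15 (SE, edgeR adjusted p = 0.0155), and the call held in 17 of 19 alternative fits. Without Ctrl 1 the adjusted p was 0.053 and with the replicate number as a block it was 0.137. The block compares libraries of the same number, so CKO libraries whose number no Ctrl library has add nothing to that comparison.

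Mrps6 shares its start region with Slc5a3, the sodium-dependent myo-inositol transporter, which is read on the same strand, begins within the first exon of Mrps6 and has its second exon in the first intron of Mrps6. The RefSeq starts are 14 bases apart, and the stretch is shown from 100 bases before the Slc5a3 start, with capitals from the Slc5a3 start to the Mrps6 start.
Slc5a3 and Mrps6, chr16:92058222-92058345, plus strand, GRCm38.p6: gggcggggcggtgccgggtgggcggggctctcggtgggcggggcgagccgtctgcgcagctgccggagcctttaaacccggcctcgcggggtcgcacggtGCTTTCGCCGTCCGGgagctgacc

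Slc5a3 was at 135, 104, 124 and 178 CPM in Ctrl and at 60.5, 66.7, 68.9, 67, 50.7 and 85.6 CPM in CKO. Its groups did not overlap either, and its log2 fold change was -1.02 ± 0.16 (SE, edgeR adjusted p = 0.00801). Both genes of the shared start were thus lower in every CKO library. The first exons overlap, so reads from them can belong to either gene, while exons 2 and 3 of Mrps6 lie beyond the end of Slc5a3. Coverage of exon 3, in mean reads per base scaled to 10000000 counts per library, was 31.4 to 41.8 in Ctrl and 12.7 to 25.4 in CKO, a ratio of 0.584. Exon 2 gave a ratio of 0.501 with overlapping groups (19.7 to 42.4 and 12.4 to 20.6), and the second exon of Slc5a3 gave 0.493. Exons that Slc5a3 does not have thus showed lower coverage in CKO. Another annotated gene over the same stretch, AC144408.3, was at 0 to 0.224 CPM.

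**Figure D4:**
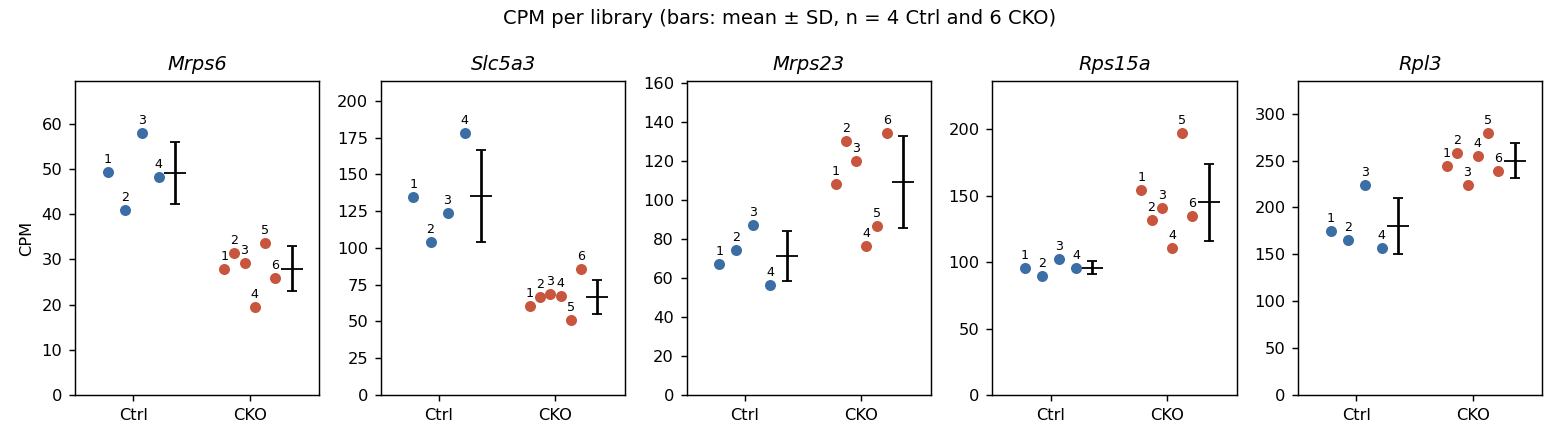
CPM in each library (points labelled by replicate number) with mean ± SD per group for Mrps6, Slc5a3, Mrps23, Rps15a and Rpl3. The Mrps6 libraries lie at 41 to 57.9 CPM in Ctrl and 19.4 to 33.6 CPM in CKO, and Slc5a3 separates the groups in the same direction.

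Summed markers of several other cell types also differed between the groups. Of all tested genes 2.8% were called by edgeR and 6.38% by DESeq2, and 17% had an unadjusted p under 0.05. Fibroblast markers (7 of 7 detected) summed to 4427 to 8176 CPM in Ctrl and 8221 to 15126 CPM in CKO, with Ctrl 3 the highest control and CKO 1 and CKO 5 the highest mutants, as for the cytosolic sum. 0 of the 7 passed the threshold by edgeR, 3 had an unadjusted p under 0.05 and DESeq2 called 3. Macrophage markers (6 of 6) summed to 461 to 828 CPM and 827 to 1416 CPM, and 2 of them, Cd68 and Cd163, rose. Their highest control was also Ctrl 3, and their highest mutants were also CKO 1 and CKO 5. Markers of dividing cells (5 of 5) summed to 28.7 to 60 CPM and 81.2 to 273 CPM, and 4 rose. Among the Ctrl libraries their highest value was in Ctrl 4, which had the lowest cytosolic sum. Among the CKO libraries it was in CKO 5, which had the highest cytosolic sum. Endothelial markers (5 of 5) summed to 665 to 875 CPM in Ctrl and 911 to 1042 CPM in CKO without overlap. Of these 5, edgeR called 0 and DESeq2 1. Smooth muscle markers (5 of 5) summed to 1316 to 1963 CPM and 1854 to 2601 CPM, with 1 that rose. Red blood cell markers ran from 204 to 449 CPM and from 176 to 1568 CPM, fat markers from 1055 to 2138 CPM and from 479 to 2134 CPM, and nerve markers, of which 1 fell, from 33.2 to 207 CPM and from 15.6 to 56.7 CPM. Lymphocyte markers ran from 1.42 to 154 CPM and from 2.53 to 95.2 CPM. Of the 11 cardiomyocyte markers 5 fell and 1 rose. None of these markers was at 0 in all libraries. Their part in the difference of ribosomal protein transcripts was not tested.

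Short transcripts as a whole moved in the same libraries. Other tested genes with a main transcript under 1000 bases summed to 109401, 109209, 135142 and 98637 CPM in Ctrl and to 126153, 116660, 113735, 106490, 153310 and 111650 CPM in CKO, so that Ctrl 3 and CKO 5 were again the highest of their groups; the ratio of means was 1.07. Among other genes with a mean of at least 20 CPM, the median log2 fold change was 0.18 for 166 genes under 500 bases. It was 0.11 for 597 genes from 500 to 1000 bases and 0.10 for 1261 genes from 1000 to 2000 bases. For 2754 genes from 2000 to 4000 bases it was 0.04, and for 2918 genes of 4000 bases or more -0.03. The noncoding RNAs Rn7sk and Rmrp, chosen after their values were seen, reached 15750 and 1983 CPM in Ctrl 3 and 26190 and 3913 CPM in CKO 5, the highest of each group. Their range in the other libraries was 8872 to 16706 CPM and 851 to 2492 CPM. The part of transcript length and of short RNAs in the result was not tested.

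The size of the cytosolic difference depended on which libraries were kept. Without Ctrl 3 the median log2 fold change was 0.57, 67 of 76 genes had an unadjusted p under 0.05, and Rpl3 was called in place of Rps15a. Without CKO 5 the median was 0.25 and 8 of 76 had an unadjusted p under 0.05. Without Ctrl 1, Ctrl 2 or Ctrl 4 the medians were 0.32, 0.32 and 0.29, only 3, 4 and 3 of 76 had an unadjusted p under 0.05 and 0 were called. Without CKO 1 the count of unadjusted p under 0.05 was 9 of 76, and without CKO 3 it was 33 of 76, with 0 called in both. Without Ctrl 3 and CKO 4, the libraries with high airway markers, it was 0.59 with 68 of 76, and Rpl3 and Rps15a were called; the mitochondrial median was then 0.31, with Mrps6 and Mrps23 called. The mitochondrial median was 0.26 without Ctrl 3 and 0.11 without Ctrl 4. Calls over all tested genes, 497 with all libraries, moved in these fits too. They were 607 without Ctrl 3, 390 without CKO 5, 305 without CKO 1 and 509 without CKO 3. Without Ctrl 1, Ctrl 2 or Ctrl 4 they were 221, 190 and 237, and without Ctrl 3 and CKO 4 together 509. The share of all tested genes with an unadjusted p under 0.05 is not given for these fits. Within the libraries with high Xist, the cytosolic sum was 9919 and 10041 CPM in Ctrl and 11286 to 15260 CPM in CKO and did not overlap; within those with low Xist it was 9341 and 14827 CPM in Ctrl and 12639 to 19990 CPM in CKO and overlapped.

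Lists of genes that work with the ribosome had medians below that of its cytosolic proteins, and few of their members passed the test. The shares over all tested genes to read these counts against are 2.8% called by edgeR, 6.38% called by DESeq2 and 17% with an unadjusted p under 0.05. Of 15 tested ribosomal proteins outside the naming rule, 0 were called by edgeR or by DESeq2, 3 had an unadjusted p under 0.05, and the median log2 fold change was 0.26. Rack1, a scaffold on the small subunit, was at 353 to 586 CPM in Ctrl and 452 to 740 CPM in CKO (0.32 ± 0.18, SE, edgeR adjusted p = 0.389). Rps3a1 had 0.16 ± 0.31 (SE, edgeR adjusted p = 0.823). Of 31 translation factors and other genes with TOP mRNAs 0 were called by edgeR and 2 by DESeq2, 4 had an unadjusted p under 0.05, and the median was 0.18. The elongation factors Eef1a1 and Eef2 had 0.22 ± 0.16 and 0.08 ± 0.09 (SE), with adjusted p-values of 0.521 and 0.681.

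Of 53 genes of ribosome assembly and rRNA synthesis 1 rose, Rrp12, which exports and matures pre-ribosomes. It was at 13.9 to 23.3 CPM in Ctrl and 30 to 43.8 CPM in CKO, with a log2 fold change of 1.04 ± 0.18 (SE, edgeR adjusted p = 0.0113), and the groups did not overlap. With the replicate number as a block, a comparison that rests on same-numbered libraries only, its adjusted p was 0.159. The call held in the other 18 alternative fits. The median of that list was 0.12. Of 26 genes that control translation through mTOR and eIF2 0 were called by edgeR and 3 by DESeq2, 9 had an unadjusted p under 0.05, a larger share than the 17% of all tested genes, and the median was 0.04. The initiation scaffold Eif4g1 had -0.01 ± 0.12 (SE), and Sesn1, which restrains mTOR, 0.26 ± 0.1 (SE), with adjusted p-values of 0.968 and 0.242.

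On the mitochondrial side, 0 of 47 tested genes of mitochondrial translation were called by edgeR and 1 by DESeq2, 6 had an unadjusted p under 0.05, a share below that of all tested genes, and the median was 0.08. Lrpprc, which stabilises mitochondrial mRNAs, had 0.20 ± 0.09 (SE, edgeR adjusted p = 0.317). Lars2, the mitochondrial leucyl-tRNA synthetase, was at 5366 CPM in CKO 2 and at 16.2 to 73.1 CPM in all other libraries, so that its fold change rests on 1 library and was -0.81 without it. Of 17 regulators of mitochondrial biogenesis 0 were called by edgeR or DESeq2, 1 had an unadjusted p under 0.05, 4 were above 0 and the median was -0.10. The coactivator Ppargc1a had -0.35 ± 0.26 (SE) and Perm1 -0.07 ± 0.2, with adjusted p-values of 0.518 and 0.883.

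The authors also compared CKO with Ctrl in the left atrial appendage, using libraries of an earlier study. In the authors' deposited table of 13646 genes, 29 of 76 cytosolic genes were higher and 0 lower in CKO than in Ctrl appendage at a false discovery rate under 0.05, which is 38.2% of them beside 16.8% of all genes higher and 17.9% lower. There the class had a median of 0.37 on the log2 scale, and the 29 called values ran from 0.37 to 0.73 in the authors' deposited table. The highest were Rps16, Rpl39 and Rpsa, each at 0.73, followed by Rpl35 (0.67), Rpl31 (0.66) and Rpl29 (0.65) in the authors' deposited table. Rpl3 was at 0.48 and Rpl3l at -0.99 there, with false discovery rates of 0.0374 and 1.04e-04 in the authors' deposited table. Of the mitochondrial genes 16 of 78 were higher (20.5%) and 1 lower in the appendage, with a median of 0.16 in the authors' deposited table. Mrps23 and Mrpl36 led at 0.85 and 0.84, Mrps14 had 0.70, Mrps17 0.57 and Mrpl20 0.54, and Mrps6 was the lower gene at -1.27 in the authors' deposited table.

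For the peri-pulmonary vein libraries, which are the ones tested above, the authors' deposited table listed Rps15a at 0.58 and Mrps23 at 0.60 as higher and Mrps6 at -0.84 as lower, beside 3.03% of all genes higher and 2.47% lower. The class medians of the vein contrast in the authors' deposited table were 0.35 for cytosolic and 0.19 for mitochondrial genes. Whether the vein and appendage responses differ was not tested. Their libraries come from different studies, and the contrast between the regions draws on libraries of both, so the values are only set side by side. Slc5a3 had -1.04 in the vein region and -2.19 in the appendage in the authors' deposited table.

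Between the regions, 70 of 76 cytosolic and 69 of 78 mitochondrial genes had values below 0 (vein region over appendage) in the authors' deposited table. The median log2 difference was -0.27 for each class, against 0.00 over all genes, in the authors' deposited table. Few members passed its threshold: of cytosolic genes Rps16 was higher (0.77), and Rps15a (-0.86), Rpl35 (-0.61) and Rpl10 (-0.55) were lower, and of mitochondrial genes Mrps6 (-0.95) and Mrpl30 (-0.56) were lower, beside 8.19% higher and 4.06% lower of all genes in the authors' deposited table. The appendage libraries come from another study, so region and study cannot be told apart in this contrast.

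**Figure D5:**
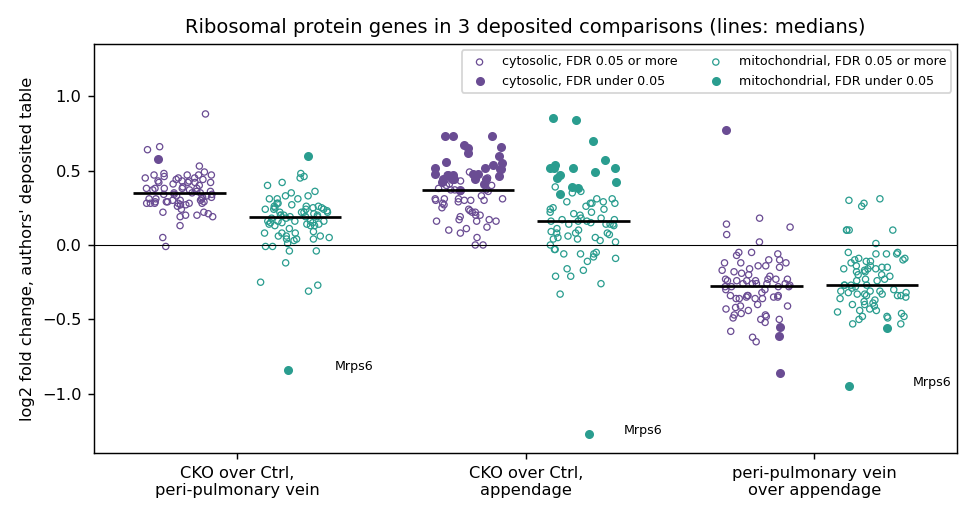
Log2 fold changes of the ribosomal protein genes in the authors' deposited table for CKO over Ctrl in the vein region and in the appendage and for the vein region over the appendage, with filled points at a false discovery rate under 0.05 and lines at class medians. Of the cytosolic genes 29 are filled in the appendage contrast, where 16.8% of all genes were higher and 17.9% lower. In the vein contrast 1 is filled, where 3.03% of all genes were higher and 2.47% lower. The cytosolic medians of these contrasts are 0.37 and 0.35. Mrps6 lies below the other mitochondrial genes in all 3.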

How the data were processed

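Left atrial RNA from around the pulmonary veins of 4 Ctrl and 6 CKO mice was depleted of rRNA with Ribo-Zero and prepared with TruSeq RNA v2, per the labels' protocols, which also name polyA RNA as the molecule. Per the submitters' processing notes the authors used TopHat2 2.1.1 with mm10, StringTie 1.3.3, edgeR 3.18.1, limma 3.32.10 and R 3.4.0, and per the file headers the annotation was Ensembl 94. The deposited gene table holds estimated counts, which were rounded to whole numbers. The deposited transcript files hold TPM, which was summed per gene, and coverage per exon, which was scaled to 10000000 counts. The authors' deposited table of comparisons holds log2 fold changes and p-values with false discovery rates. Its appendage comparisons rest on libraries of another study, and 10 columns of such libraries in the gene table were not used here. The kit does not mark strand, so reads of overlapping genes on opposite strands cannot be told apart.

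Genes were tested with edgeR 4.0.16 in R 4.3.3 (filterByExpr, TMM scaling, quasi-likelihood test, Benjamini-Hochberg adjustment over 17752 genes, threshold 0.05), with no covariate, on all 10 libraries. CPM used the TMM-scaled library sizes. The test was checked on simulated counts with known changes. It found 5.97% of genes changed 1.5-fold, 37.3% of those changed 2-fold and 78.8% of those changed 4-fold. Of its 84 calls 3 were false. Most changes of 1.5-fold were thus missed. DESeq2 1.42.0, limma-voom (limma 3.58.1), other scalings and filters, Xist as a covariate, a replicate block and left-out libraries were tried, 19 alternative fits in all. The replicate block imposes a pairing by number, and CKO libraries whose number no Ctrl library has add nothing to its fold changes. It also leaves fewer degrees of freedom than the main fit. Libraries of a group differed by more than sampling noise, their smallest chi-square divided by its degrees of freedom being 10.1. No test was run over a whole class, whose counts and medians are given beside those of all genes. Uniqueness is the share of 50-base windows of the main transcript found in no other gene of GENCODE M21 transcripts, the main transcript being the one with the highest mean TPM.

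The members and all gene and marker lists were chosen with earlier results of these data known. Genes named in the text are mainly those past the threshold, the 4 highest and 4 lowest by fold change and by TPM in each class, the most variable in Ctrl, those leading the authors' comparisons, Tbx5, a fixed set of paralogues, and the called or highest genes of each list. Slc5a3, AC144408.3, Xist, Rn7sk, Rmrp, Rps6, Mrpl45, Mrps25, Mrps14, Cd68 and Cd163 fall outside this rule and were chosen after their values were seen. A gene that this rule names is not reported here.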

Additional observations from a re-analysis of the deposited data

Results flagged for a closer look

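Of 116 groups of values tested, 18 held a library far from the others of its group by Dixon's test, and chance flags about 1 in 20. Ctrl 3 was the highest control for the cytosolic sum with 14827 CPM (next 10041) and 37971 TPM (next 28718). The small subunit sum in Ctrl 3 was 6221 CPM (next 4133) and 16736 TPM (next 12122), and the large subunit sum 8605 CPM (next 5951) and 21236 TPM (next 16596). Among single genes, Ctrl 3 was far above the other controls for Rplp2 at 159 CPM (next 111), Rps29 at 316 CPM (next 196) and Rpl39 at 182 CPM (next 108). These values share 1 library and are not separate events.

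CKO 5 was far above the other mutants for Rplp0 at 366 CPM (next 246), Rplp1 at 754 CPM (next 522), Rpl41 at 254 CPM (next 80.3), Rpl31 at 291 CPM (next 211) and Rps27 at 190 CPM (next 139). In the mitochondrial class CKO 5 stood out for Mrps17 at 58.8 CPM (next 44.4) and Mrpl33 at 98.1 CPM (next 77.2), and CKO 1 for Mrpl12 at 101 CPM (next 64.6). Ctrl 4 was far below the other controls for Mrps30 at 24.1 CPM (next 29.3).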

How the results depend on the processing

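Over 59 named genes and 19 alternative fits, 1061 values kept direction and side of the threshold, 17 lost a call, 10 gained one and 33 changed sign. The number of cytosolic genes called (1) was 0 with a CPM filter of 1 in at least 4 libraries, with library size only, with no filter and with the replicate block, and 2 with DESeq2 and without Ctrl 3 and CKO 4. The number of mitochondrial genes called (1) was 2 with DESeq2 and without Ctrl 3 and CKO 4, and 0 with the replicate block. Over all genes 497 calls became 1132 with DESeq2 and 37 with the replicate block. The block rests on same-numbered libraries and fewer degrees of freedom, so calls lost under it do not test the result over all libraries. With 1 library left out at a time, calls ran from 190 to 607 over all genes, 0 to 1 for cytosolic and 0 to 2 for mitochondrial genes. The medians ran from 0.25 to 0.57 and from 0.11 to 0.26, and the ratios of sums from 1.18 to 1.45 (cytosolic), 1.08 to 1.18 (mitochondrial) and 1.08 to 1.21 (their quotient). With library size only, the median of all genes shifted to -0.09, and the class medians were 0.30 and 0.14. Same-numbered libraries had correlations of 0.0313, 0.0876, -0.319 and 0.0894. These few values gave no sign that the numbers pair the mice, but they cannot settle it. Under the block, where only same-numbered libraries inform the fold changes, the class medians were 0.28 and 0.15.

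Sign changes concerned small or variable values. Rpl23 was -0.05 with library size only, -0.0025 with limma-voom and -0.15 with the block, and Mrpl42 -0.0046 with library size only. Eif4g1 was 0.03 with no filter and 0.06 with the block. Under the block Rplp0 was -0.0014, Rpl36a -0.0039, Rps3a1 -0.06 and Perm1 0.08. Without Ctrl 3 and CKO 4 Mrpl48 was 0.09. With 1 library left out, the ranges were -0.10 to 0.04 for Eif4g1, -0.81 to 5.41 for Lars2, -0.09 to 0.19 for Mrpl33, -0.04 to 0.27 for Mrpl42, -0.02 to 0.54 for Mrpl53, -0.23 to 0.03 for Perm1, -0.12 to 0.09 for Rpl23, -0.35 to 1.49 for Rpl41, -0.05 to 0.36 for Rplp0 and -0.08 to 0.50 for Rps3a1. The causes were not tested.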
